A study of Mus musculus with 6 samples.

Results

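The enzymes that write and erase methyl and acetyl groups on histone lysines, other than LSD1 and its partner subunits, were examined in soleus (Sol) muscle of mice after voluntary wheel running (VWR). Members were taken by symbol: every gene of the table whose name begins with Kdm, Kmt, Setd, Hdac, Sirt, Prdm, Ehmt, Suv39h or Ezh followed by a digit, without Kdm1a, Kdm1b, Hdac1 and Hdac2. This gave 66 of the 24411 genes listed. The rule reads symbols and not expression values, but it and the role groups below were set with earlier results of these data known. Setd8 carries an older symbol and is Kmt5a in current annotation, and the enzymes now named Kmt5b and Kmt5c are not among the members because the rule does not reach their older symbols. RNA of 3 WT and 3 LSD1-mKO mice was compared, with 1 library per mouse. All mice were C57BL/6 males, were 8 weeks old at the start, lived singly with a running wheel for 38 days, and received tamoxifen at 75 mg/kg for 5 days following 3 days of familiarization. LSD1-mKO mice carried floxed Lsd1 alleles and a CreERT2 transgene driven by the human ACTA1 promoter, and WT mice carried the floxed alleles without CreERT2. The ACTA1 promoter is active in muscle fibers, so endothelial, immune and connective tissue cells of the whole muscle keep LSD1, and their RNA was in the same libraries. No sedentary mice belong to the series, so running is common to both groups and its own effect was not measured.

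Histone tails carry methyl groups on lysines 4, 9, 27 and 36 of H3 and on lysine 20 of H4, and acetyl groups on many lysines. SET-domain enzymes such as the KMT2, EHMT, SUV39H and EZH proteins add methyl groups, and JmjC-domain demethylases of the KDM2 to KDM8 families take them off using oxygen, iron and 2-oxoglutarate. LSD1, encoded by Kdm1a, removes methyl groups from H3K4 and, in some settings, from H3K9 by a flavin-dependent reaction, so the JmjC enzymes that act on the same residues are its nearest functional neighbours. Histone deacetylases (HDACs) are zinc-dependent, and sirtuins consume NAD, which ties them to cellular metabolism. In skeletal muscle, class IIa HDACs hold back MEF2-dependent transcription until they are phosphorylated and leave the nucleus during contractile activity.

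The libraries held between 8940206 and 13798059 estimated counts. Genotypes were compared in edgeR (TMM scaling, quasi-likelihood fit) across the 12828 genes left by its filter on low counts, and p-values were adjusted by Benjamini-Hochberg over all of them. Levels of a gene in each mouse are given as TMM-normalized counts per 1000000 counts (CPM), and levels of different genes are set side by side as TPM, counts scaled by transcript length to the same total in each mouse, which sets long and short transcripts on 1 scale. Kdm1a, the targeted gene, stood at 40.5, 38.2 and 33.6 CPM in WT mice 1 to 3 and at 14.6, 16.6 and 16.6 CPM in LSD1-mKO mice 1 to 3. The log2 fold change of -1.23 ± 0.11 (SE, n = 3 per group) had an edgeR adjusted p of 0.0160, so the libraries followed their labels. The summed level of 8 slow-fiber genes, such as Myh7 and Tnnt1, was between 36179 and 48181 CPM in the 6 mice. In bulk RNA, fewer cells of a type and less RNA per cell cannot be told apart, here and in every value that follows.

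Of the 66 members, 60 passed the filter. The 6 that did not were Kdm4d and 5 PRDM genes (Prdm6, Prdm11, Prdm12, Prdm13 and Prdm14), and Prdm12 and Prdm13 had 0 counts in every mouse, which allows up to 3 counts per library by counting error alone. No member reached an adjusted p under 0.05: 0 of 60 were called, against 0.0156% of all genes tested (2 of 12828). An unadjusted p under 0.05 was seen for 5 of 60 (8.33%), all of them lower in LSD1-mKO, where 6.40% of all genes tested had such a p in either direction, 2.88% in the lower and 3.52% in the higher direction. The 5 were Kdm5a, Kdm5c, Kdm4b, Setd4 and Hdac4, and their smallest adjusted p was 0.701. Which members had such a p depended on the mice included: the count of 5 became 1 without LSD1-mKO mouse 1 (7.35% of all genes in that fit), 1 without mouse 2 (5.59%) and 0 without mouse 3 (3.78%). Without WT mouse 1 it was 3 of 60, of which 2 were lower and Sirt2 was higher, where 14.4% of all genes had such a p. Without WT mouse 2 it was 3 (5.68% of all genes) and without WT mouse 3 it was 2 (4.14%). DESeq2 gave 1 such member, Hdac4, where 4.50% of all genes had such a p, and also called none after adjustment, although it called 42 of all genes. Limma's voom fit gave 4 such members, where 6.31% of all genes had such a p, and called none.

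The data bound how far the members could differ between genotypes. The 95% interval of the log2 fold change lay within ±0.5, that is within 1.41-fold either way, for 45 of the 60 members, and within ±1 for 56. Estimated log2 fold changes were under 0.25 in size for 54 members. Their median was -0.035, against -0.020 over all genes tested, with 37 members lower and 23 higher. Among all genes tested, 54.8% were lower and among the members 61.7%. The members together supplied 975, 1091 and 984 TPM in WT mice and 981, 1048 and 1026 TPM in LSD1-mKO mice, so their summed level overlapped between the groups.

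**Figure D1:**
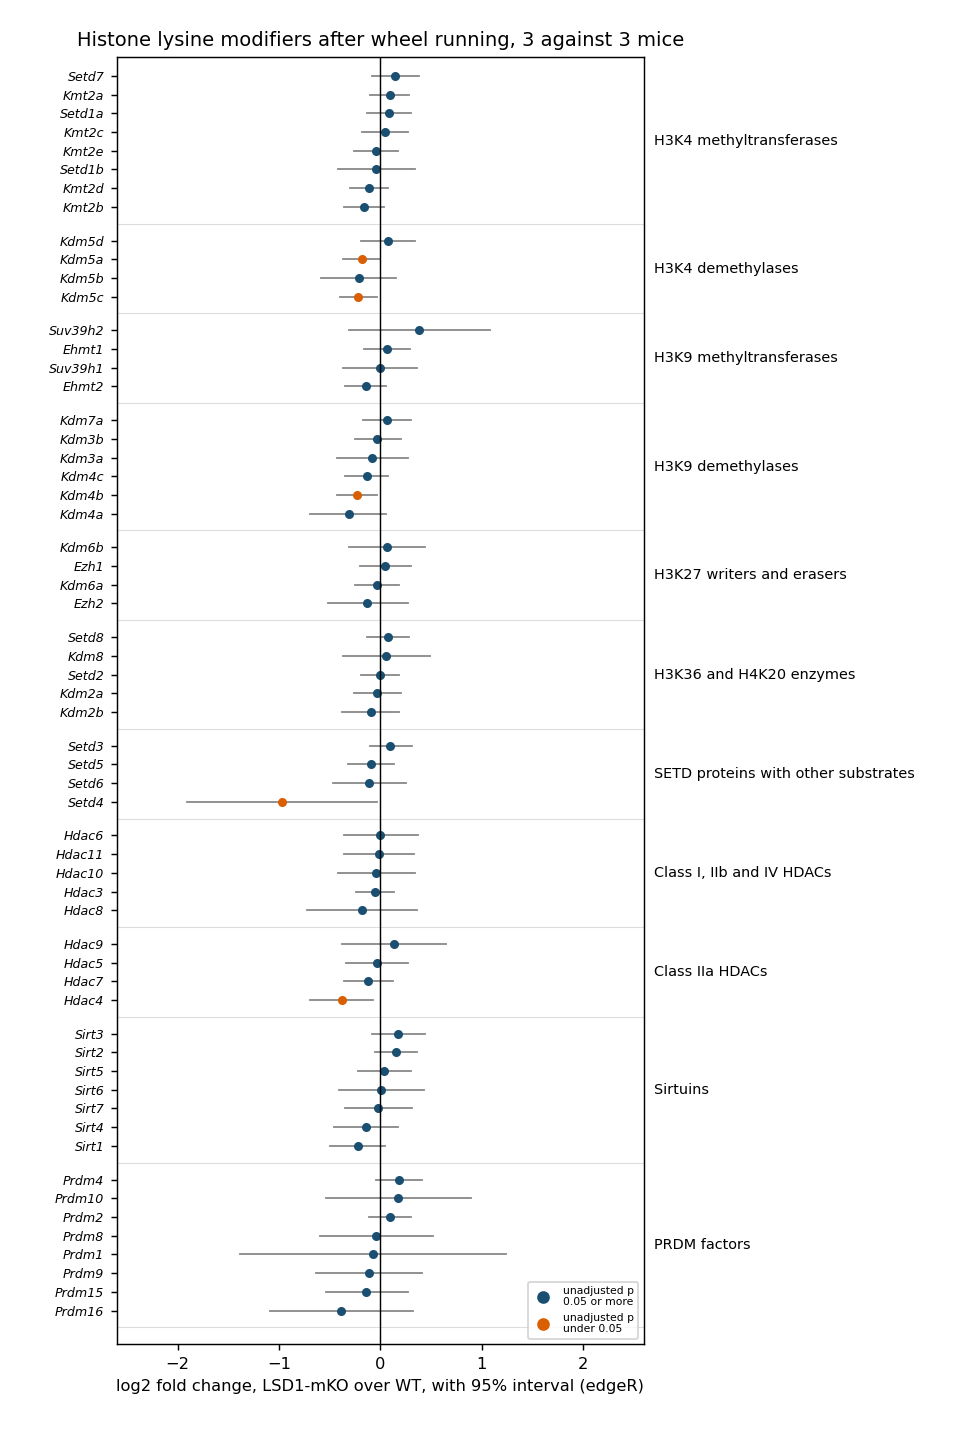
Log2 fold change (LSD1-mKO over WT, horizontal axis) of 59 tested members, grouped by role, with points for edgeR estimates and bars for 95% intervals. The 5 members in orange had an unadjusted p under 0.05 and lie left of 0, and the widest intervals belong to Prdm1 and Setd4, which were among the lowest in level.

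The groups of 3 mice did not overlap for 9 of the 60 members (15.0%), against 12.7% of all genes tested. In the lower direction this held for 7 members (11.7%, against 6.10% of all genes) and in the higher direction for 2 (3.33%, against 6.63%). An exact two-sided permutation test gives p = 0.1, the smallest value for 3 against 3 mice, to every gene whose groups do not overlap. For these 9 that p was fixed by how they were picked and adds nothing to the separation. With 5 mice groups separate more readily than with 6. The number of lower members without overlap was 15 of 60 without LSD1-mKO mouse 1 (25%, against 12.0% of all genes in that setting) and 11 without WT mouse 3 (18.3%, against 9.93%). It was 9 without WT mouse 1 (15.0%, below the 18.1% of all genes) and 8 without WT mouse 2 (13.3%, against 10.8%). Without LSD1-mKO mouse 2 it was 9 (15.0%, against 10.9%), and without LSD1-mKO mouse 3 also 9 (15.0%, against 9.15%). The number of higher members was 10 without LSD1-mKO mouse 1 (16.7%, against 12.6%), 6 without WT mouse 1 (10%, against 15.7%), 6 without WT mouse 2 (10%, against 10.5%) and 4 without WT mouse 3 (6.67%, against 9.84%). Without LSD1-mKO mouse 2 this number was 2 (3.33%, against 10.6%), and without LSD1-mKO mouse 3 it was 3 (5.00%, against 8.82%).

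**Figure D2:**
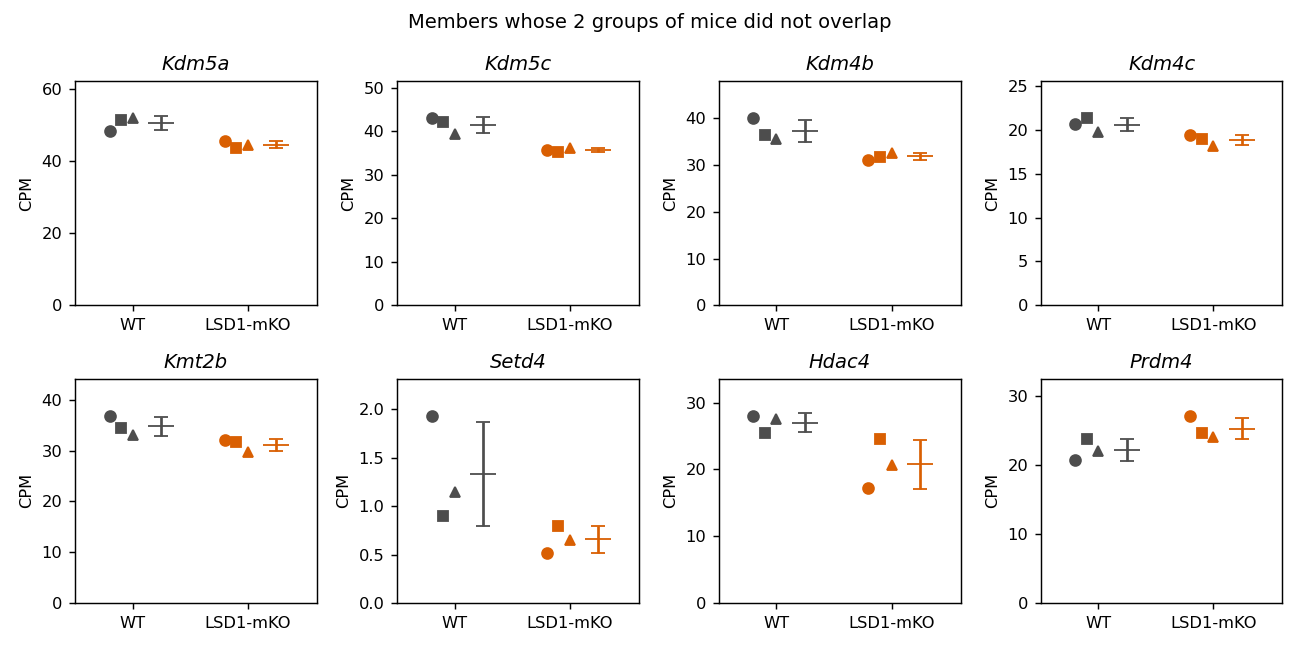
CPM of 8 members whose groups did not overlap, with 1 point per mouse (circle, square and triangle for mice 1, 2 and 3), horizontal dashes for group means and error bars for SD (n = 3). Kdm5c lay between 39.4 and 43.0 in WT and between 35.2 and 36.2 in LSD1-mKO, while all points of Prdm4 in LSD1-mKO lie above those in WT.

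The KDM5 enzymes, which erase H3K4 trimethylation and so work on the residue LSD1 also demethylates, were 4 of 4 tested. Kdm5a (chromosome 6, 120364124 to 120444574, plus strand, GRCm38) stood at 48.3, 51.4 and 51.8 CPM in WT and 45.4, 43.5 and 44.5 CPM in LSD1-mKO, with a log2 fold change of -0.18 ± 0.080 (SE, unadjusted p = 0.0480, adjusted p = 0.766, edgeR). Kdm5c (X chromosome, 152233020 to 152274535, plus strand) stood at 43.0, 42.2 and 39.4 CPM in WT and 35.8, 35.2 and 36.2 CPM in LSD1-mKO, with a log2 fold change of -0.22 ± 0.082 (SE, unadjusted p = 0.0294, adjusted p = 0.729, edgeR). Every LSD1-mKO mouse was below every WT mouse for both genes, by a margin that did not survive adjustment. Kdm5b overlapped, at 15.4, 20.7 and 19.5 CPM against 18.8, 16.0 and 13.2 CPM. Kdm5d, the Y-linked copy of Kdm5c, also overlapped, at 21.8, 19.8 and 18.3 CPM against 19.5, 20.05 and 23.4 CPM. Kdm5c and Kdm5d are close paralogs, and how the counting divided reads common to both is not given in the sources used here.

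Loss of Kdm1a RNA was not accompanied by a higher level of the KDM5 family. The summed KDM5 level was 31.9, 38.3 and 34.6 TPM in WT and 31.4, 30.5 and 31.3 TPM in LSD1-mKO. Kdm1a made up 44.0% ± 2.13 (SD, n = 3) of the combined Kdm1a and KDM5 RNA in WT and 27.2% ± 1.78 in LSD1-mKO. This share falls with Kdm1a itself and is no measure of the KDM5 genes. Within the family Kdm5c supplied the most, 40.2% of the KDM5 total on average, followed by Kdm5a with 29.1%, Kdm5d with 17.3% and Kdm5b with 13.3%. Kdm5c held a share between 38.8% and 42.8% in the 6 mice.

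Enzymes that act on H3K9 methylation were the other neighbours of LSD1. The H3K9 demethylases among the members were 7, of which 6 were tested, and 5 of the 6 were lower and 1 higher in LSD1-mKO. Kdm4b (chromosome 17, 56326062 to 56402870, plus strand), which removes H3K9 and H3K36 trimethylation, stood at 40.0, 36.5 and 35.5 CPM in WT and 31.1, 31.8 and 32.7 CPM in LSD1-mKO, without overlap (log2 fold change -0.23 ± 0.087, SE, unadjusted p = 0.0302, adjusted p = 0.729, edgeR). Its paralog Kdm4c also separated, by less, at 20.7, 21.3 and 19.8 CPM against 19.4, 18.9 and 18.2 CPM. Kdm4a, the KDM4 paralog with the highest level, overlapped at 66.1, 43.3 and 49.0 CPM against 48.0, 38.5 and 40.5 CPM. Its log2 fold change of -0.31 ± 0.16 (SE) leaned on WT mouse 1, the highest of the 6, and was -0.12 without that mouse. Kdm3b, which shares 24.6% of its exon bases with the gene model Gm26538, was at 49.9, 54.4 and 46.6 CPM in WT and 45.4, 52.5 and 50.1 CPM in LSD1-mKO. Kdm3a, Kdm3b and Kdm7a, which take off mono- and dimethyl groups, had log2 fold changes of -0.079, -0.028 and 0.066, and Kdm4d, a testis-enriched paralog, was at 0.180 CPM or less in every mouse. Summed over the group, H3K9 demethylases came to 94.2, 97.0 and 92.1 TPM in WT and 86.1, 82.8 and 86.7 TPM in LSD1-mKO.

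The JmjC demethylases of H3K4 and H3K9 that the symbol rule reaches were joined into a single set after their values were seen. Of its 10 tested members, 8 were lower in LSD1-mKO and 2 higher. An unadjusted p under 0.05 in edgeR was found for 3 of the 10, all lower (30.0%, against 6.40% of all genes in either direction and 2.88% in the lower). The groups did not overlap for 4, all lower (40.0%, against 12.7% in either direction and 6.10% in the lower). Because the set was joined with these values known, its high shares follow in part from that choice and show no excess over all genes. Their log2 fold changes ran from -0.31 to 0.07 with a median of -0.158. Of 11 tested genes for other JmjC proteins, which the symbol rule does not reach, 6 were higher and 5 lower, with a median of 0.019. The 11 were not sorted by substrate and hold relatives of the KDM3 and KDM7 enzymes: Jmjd1c, Hr, Phf2 and Phf8. Those had log2 fold changes of 0.11, -0.11, 0.019 and -0.048, so the list is no contrast of H3K9 erasers with other JmjC proteins. Among those 11, 0 had an unadjusted p under 0.05 in edgeR and 0 were without overlap. The 3 of the joined set with such a p were Kdm5a, Kdm5c and Kdm4b, and DESeq2 gave none of them an unadjusted p under 0.05. Without LSD1-mKO mouse 1, 2 or 3, the number in the joined set was 0 each time. Without WT mouse 1 it was 1 (Kdm5a), without WT mouse 2 it was 1 (Kdm4a) and without WT mouse 3 it was 2 (Kdm4b and Kdm5c).

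Of the H3K9 methyltransferases, 2 were higher and 2 lower in LSD1-mKO, and the groups overlapped for all 4. Ehmt2, which encodes G9a and writes H3K9 dimethylation, had the highest level of the 4, at 35.7 ± 3.15 TPM (SD over 6 mice), and its partner Ehmt1 (GLP) stood at 11.9 ± 1.00 TPM. Ehmt2 was at 72.3, 70.2 and 61.8 CPM in WT and 59.5, 63.7 and 62.0 CPM in LSD1-mKO. Ehmt1 was at 31.2, 31.5 and 30.7 CPM in WT and 29.2, 35.4 and 33.3 CPM in LSD1-mKO. Both overlapped, and their log2 fold changes were -0.14 and 0.067. Suv39h1 and Suv39h2, which write the H3K9 trimethylation of heterochromatin, were lower in level, at 5.94 and 1.34 TPM, and share 14.6% and 10% of their exon bases with other gene models.

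Among the 8 members grouped with the H3K4 methyltransferases, 4 were higher and 4 lower, none with an unadjusted p under 0.05. Setd7, a monomethyltransferase that also acts on many other proteins, had the highest level at 41.6 ± 3.74 TPM (SD over 6 mice), and stood at 143, 131 and 123 CPM in WT and 131, 153 and 155 CPM in LSD1-mKO. Kmt2b (chromosome 7, 30568858 to 30588726, minus strand), a writer of promoter H3K4 trimethylation, was the member of the group without overlap, at 36.8, 34.5 and 33.0 CPM against 32.0, 31.6 and 29.8 CPM. Its log2 fold change was -0.16 with a 95% interval from -0.36 to 0.04. Kmt2d, the enhancer H3K4 monomethyltransferase whose product LSD1 can erase, overlapped at 99.8, 94.5 and 88.2 CPM against 86.0, 84.7 and 91.5 CPM. Kmt2e, a KMT2 relative that reads rather than writes the mark, followed in level at 20.3 ± 2.44 TPM and stood at 60.5, 74.5 and 67.8 CPM in WT and 63.6, 69.3 and 64.5 CPM in LSD1-mKO. Setd1a shares 52.3% of its exon bases with other annotated genes in libraries that do not keep the strand, so its value is uncertain.

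Writers and erasers of H3K27 methylation stayed near equality. Polycomb's catalytic subunit in this muscle was mostly the Ezh1 form, which is typical of cells that no longer divide: Ezh1 stood at 31.7 ± 3.31 TPM and Ezh2 at 4.55 ± 0.555 TPM (SD over 6 mice). Ezh1 was at 61.0, 62.0 and 54.3 CPM in WT and 53.4, 67.9 and 62.4 CPM in LSD1-mKO, and Ezh2 at 5.55, 6.03 and 6.31 CPM against 6.21, 5.14 and 5.03 CPM. Both overlapped, with log2 fold changes of 0.051 and -0.13. Ezh1 supplied 87.9%, 87.2% and 85.1% of their sum in WT and 85.1%, 89.7% and 89.2% in LSD1-mKO. These shares overlapped (exact two-sided permutation test, p = 0.6). Kdm6a (UTX), an eraser of H3K27 trimethylation, was at 21.2, 20.6 and 21.7 CPM in WT and 20.6, 22.1 and 19.3 CPM in LSD1-mKO, within a log2 interval from -0.25 to 0.19. Kdm6b (JMJD3), its inducible paralog, ranged more widely, at 29.7, 41.8 and 29.3 CPM against 41.0, 31.4 and 32.9 CPM.

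The H3K36 and H4K20 enzymes included the member that varied least. Setd2, which writes H3K36 trimethylation along transcribed genes, stood at 62.4, 57.6 and 59.2 CPM in WT and 58.4, 63.5 and 57.0 CPM in LSD1-mKO. Its highest mouse was 1.11 times its lowest. Setd8, which monomethylates H4K20, had the highest level of the group at 41.5 ± 2.62 TPM (SD over 6 mice), and was at 51.2, 47.0 and 51.5 CPM in WT and 48.5, 54.6 and 54.9 CPM in LSD1-mKO. Its groups overlapped, with a log2 fold change of 0.077 and an interval from -0.13 to 0.28. Kdm2a, Kdm2b and Kdm8 had log2 fold changes of -0.028, -0.096 and 0.061.

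Setd3 and Sirt2 had the highest levels of the 66 members. Setd3 stood at 129 ± 7.24 TPM (SD over 6 mice) and Sirt2 at 120 ± 8.53 TPM, and their order turned, to 125 and 129 TPM, when the longest transcript of any kind gave the length. The SETD3 protein methylates a histidine of actin, the main thin filament protein of muscle, and is grouped here with the SETD proteins that act on other substrates. Setd3 was at 168, 151 and 147 CPM in WT and 158, 174 and 169 CPM in LSD1-mKO, with a log2 fold change of 0.10 and an interval from -0.10 to 0.31. Setd4 (chromosome 16, 93583457 to 93604063, minus strand) had the largest fold change of any tested member and was among the lowest in level. It stood at 1.93, 0.900 and 1.15 CPM in WT and 0.518, 0.796 and 0.652 CPM in LSD1-mKO, with WT mouse 1 apart from the rest (log2 fold change -0.97 ± 0.41, SE, unadjusted p = 0.0448, adjusted p = 0.766, edgeR). Without WT mouse 1 the log2 fold change was -0.64. Setd5, whose loss disturbs neural development, was at 45.6, 55.3 and 46.3 CPM in WT and 47.5, 45.2 and 45.8 CPM in LSD1-mKO. Setd5 and Setd6 overlapped, with log2 fold changes of -0.088 and -0.11.

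**Figure D3:**
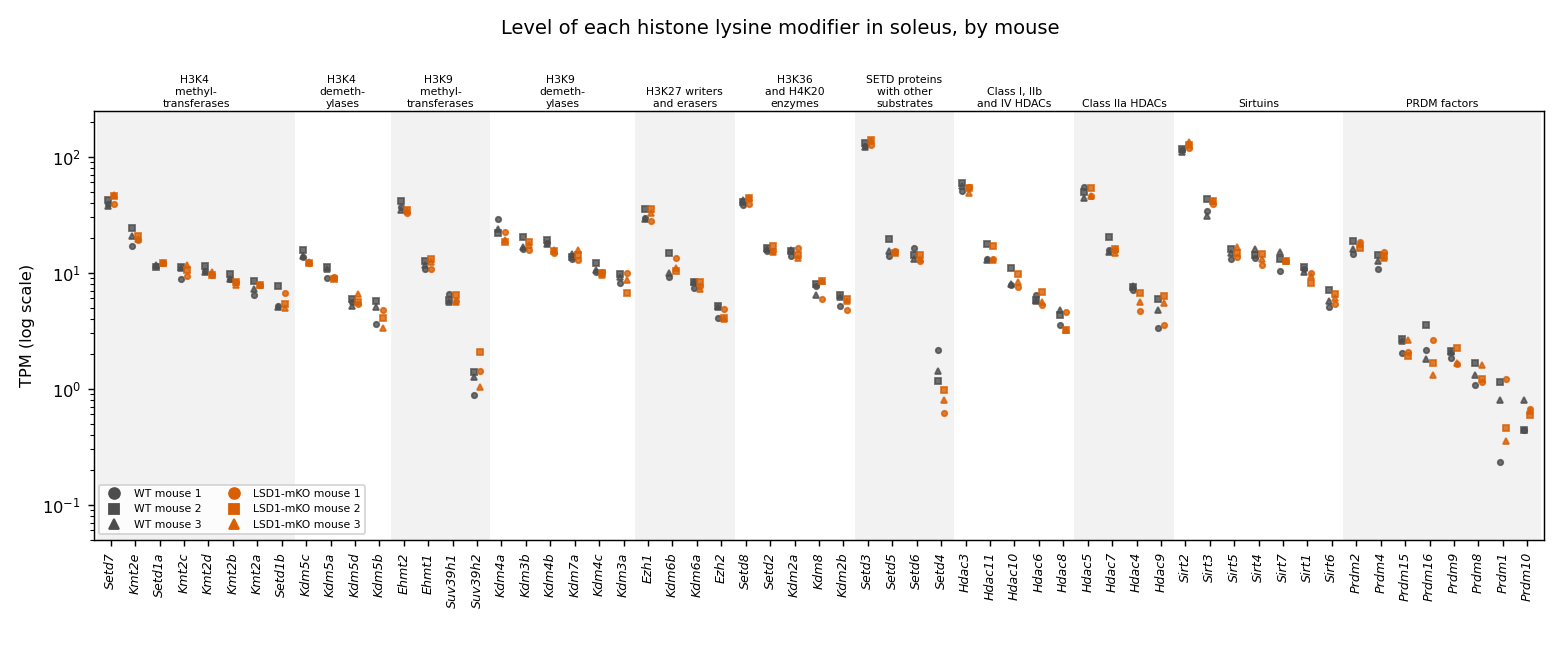
TPM (logarithmic vertical axis) of 59 tested members in each mouse, grouped by role and ordered by mean level. Setd3 and Sirt2 stand highest at 129 and 120 TPM on average, and the PRDM factors reach the lowest levels.

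HDAC3, the catalytic part of the NCoR and SMRT corepressors, sets a metabolic gene program in muscle. Hdac3 was the steadiest deacetylase, at 49.8, 50.5 and 50.1 CPM in WT and 50.4, 49.7 and 45.0 CPM in LSD1-mKO, and its highest mouse was 1.12 times its lowest. Its level of 53.7 ± 3.70 TPM (SD over 6 mice) ranked 3 among the members with the longest protein-coding transcript, but was 32.7 TPM when the longest transcript of any kind was used for the length. Hdac11, the class IV enzyme, shares 17.9% of its exon bases with overlapping gene models and was at 17.1, 19.6 and 15.2 CPM in WT and 15.7, 20.2 and 15.5 CPM in LSD1-mKO. Hdac6, Hdac8, Hdac10 and Hdac11 had log2 fold changes from -0.18 to 0.002.

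Class IIa HDACs are the deacetylases most closely tied to muscle activity. Hdac4 (chromosome 1, 91928779 to 92195699, minus strand), which is induced when muscle loses its nerve, stood at 28.0, 25.4 and 27.6 CPM in WT and 17.2, 24.5 and 20.6 CPM in LSD1-mKO. The groups were apart, but LSD1-mKO mouse 2 came within 1 CPM of the lowest WT mouse. The log2 fold change was -0.38 with an interval from -0.69 to -0.07 (unadjusted p = 0.0222, adjusted p = 0.701, edgeR). Without LSD1-mKO mouse 1 it was -0.26, and without mouse 2 it was -0.51. Hdac4 shares 22.4% of its exon bases with an overlapping gene model, Gm26720, and unstranded reads of the shared part cannot be told apart.

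The other class IIa paralogs gave no separation between genotypes. Hdac5 was at 131, 101 and 95.7 CPM in WT and 101, 118 and 101 CPM in LSD1-mKO. Hdac7 was at 32.4, 35.9 and 28.3 CPM in WT and 30.1, 30.8 and 28.3 CPM in LSD1-mKO. Hdac9 was at 12.9, 19.8 and 16.7 CPM in WT and 12.9, 22.4 and 19.5 CPM in LSD1-mKO. All 3 overlapped between the groups, with log2 fold changes of -0.037, -0.12 and 0.14. Hdac5 supplied 64.0% of class IIa RNA, Hdac7 21.2%, Hdac4 8.49% and Hdac9 6.34%, as means over 6 mice. Hdac4's share was 8.68%, 8.96% and 10.7% in WT and 6.73%, 8.08% and 7.82% in LSD1-mKO. Of 10 denervation-responsive genes linked to class IIa HDACs, 9 were tested, 7 were lower and 2 higher, and none had an unadjusted p under 0.05.

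**Figure D4:**
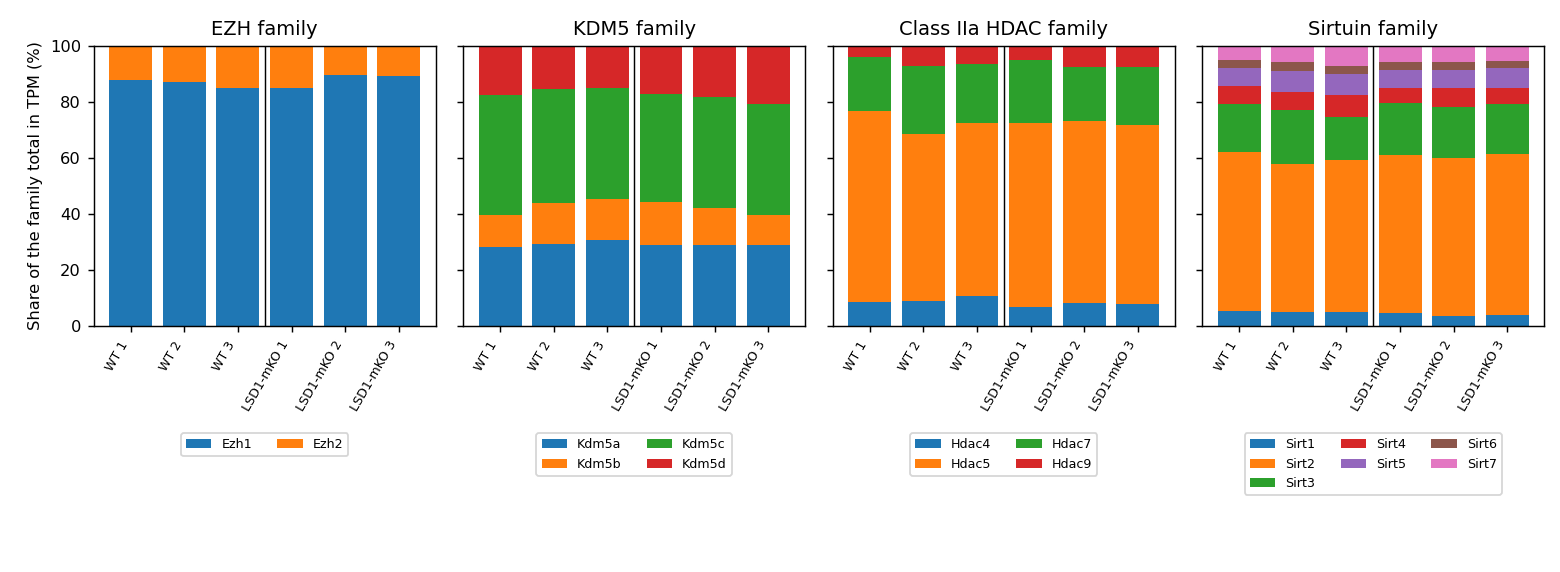
Share of each paralog in its family's summed TPM (vertical axis, percent) in each of the 6 mice, for the EZH, KDM5, class IIa HDAC and sirtuin families. Ezh1 made up 85.1% to 89.7%, Hdac5 59.6% to 67.9% and Sirt2 52.8% to 57.4% of their families, and these shares overlapped between WT (left of each black line) and LSD1-mKO.

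Promoter sequence is shown for 3 members to give the letters around sites for regulators named in muscle work: MEF2, the partner of class IIa HDACs, estrogen-related receptors (ERR half-site AAGGTCA) and factors that bind the E-box CACGTG. Windows from 250 bases before to 50 bases after the start (RefSeq, GRCm38.p6) were given for 52 of the 66 members, 73 windows in all, and both strands were searched. The ERR half-site was in 2 of the 73 (2.74%, against 4.72% of all 32851 windows), in Kdm6a and Sirt5. The E-box was in 7 (9.59%, against 7.15%), in Ehmt2, Hdac5, Kdm4c, Kdm6a, Prdm10 and Sirt1. A MEF2 site was in 2 (2.74%, against 0.557%), in Hdac5 and Prdm10. Base composition was not matched in these shares. The median member window held 62.0% G and C and 22 CG pairs, against 52.7% and 7 over all windows, and the E-box itself holds a CG pair. These are matches of letters and were not measured as bound sites. The Hdac4 window below surrounds a RefSeq start that lies inside the gene interval given above. The start of that interval on the minus strand, at 92195699, was not in the window searched for Hdac4. Sequences run 5′ to 3′ on the strand of the gene and capitals mark the matches: for Hdac5 (chr11:102230123-102230422, minus strand) a MEF2 site followed by the E-box, for Kdm6a (chrX:18162325-18162624, plus strand) the ERR half-site and the E-box overlapping each other, and for Hdac4 (chr1:92180292-92180591, minus strand), the class IIa member with the lowest p, none of the 3 motifs.
Hdac5: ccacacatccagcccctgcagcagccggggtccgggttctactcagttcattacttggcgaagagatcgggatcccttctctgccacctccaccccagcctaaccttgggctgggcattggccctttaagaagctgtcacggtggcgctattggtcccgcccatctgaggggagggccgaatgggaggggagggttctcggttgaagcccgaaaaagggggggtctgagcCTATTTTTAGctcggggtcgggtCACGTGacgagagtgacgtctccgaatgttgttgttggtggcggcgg
Kdm6a: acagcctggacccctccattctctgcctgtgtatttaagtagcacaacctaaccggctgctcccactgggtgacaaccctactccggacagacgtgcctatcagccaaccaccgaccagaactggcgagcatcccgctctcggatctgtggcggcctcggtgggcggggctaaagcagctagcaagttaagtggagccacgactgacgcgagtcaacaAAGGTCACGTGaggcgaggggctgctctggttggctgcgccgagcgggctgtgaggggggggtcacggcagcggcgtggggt
Hdac4: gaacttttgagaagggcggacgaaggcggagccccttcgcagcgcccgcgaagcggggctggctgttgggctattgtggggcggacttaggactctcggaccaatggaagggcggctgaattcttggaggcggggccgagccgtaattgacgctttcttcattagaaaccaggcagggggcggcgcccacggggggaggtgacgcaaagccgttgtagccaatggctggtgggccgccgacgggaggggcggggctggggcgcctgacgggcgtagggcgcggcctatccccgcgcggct

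Sirtuins were 7 of 7 tested, with 4 higher and 3 lower and no unadjusted p under 0.05. Sirt2, a mainly cytoplasmic deacetylase of tubulin and other proteins and the sirtuin of highest level, stood at 118, 105 and 103 CPM in WT and 115, 121 and 127 CPM in LSD1-mKO, with a log2 fold change of 0.16 and an interval from -0.05 to 0.36. Sirt3, the main mitochondrial deacetylase, was at 26.8, 29.0 and 22.1 CPM in WT and 28.4, 29.9 and 29.8 CPM in LSD1-mKO, and 12.7% of its exon bases are shared with neighbouring genes. Sirt1, the nuclear sirtuin that deacetylates PGC-1α, was at 23.5, 20.9 and 19.99 CPM in WT and 20.05, 16.3 and 18.7 CPM in LSD1-mKO. This gave a log2 fold change of -0.22 with an interval from -0.50 to 0.05 (unadjusted p = 0.0948, adjusted p = 0.774, edgeR). The lowest WT mouse and the highest LSD1-mKO mouse differed by under 0.1 CPM, so the groups touched. The other mitochondrial sirtuins, Sirt4 and Sirt5, had log2 fold changes of -0.14 and 0.036.

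PRDM factors carry a PR domain related to SET, and most act as sequence-specific regulators. They were the largest group, with 14 members, and 9 were tested. Prdm4 was at 20.7, 23.8 and 22.1 CPM in WT and 27.1, 24.7 and 24.1 CPM in LSD1-mKO, with a log2 fold change of 0.19 (interval -0.04 to 0.41). Its LSD1-mKO mice all lay above its WT mice, and its unadjusted p was 0.0933. Prdm2 (RIZ), an H3K9 methyltransferase, had the highest level of the group at 17.0 ± 1.59 TPM (SD over 6 mice), and was at 52.1, 58.0 and 52.3 CPM in WT and 61.0, 54.2 and 57.9 CPM in LSD1-mKO. Prdm16, known for its part in brown fat identity, was at 9.04, 12.7 and 6.84 CPM in WT and 10.3, 6.44 and 5.03 CPM in LSD1-mKO, with an interval from -1.09 to 0.32. The summed level of the brown adipocyte markers Ucp1, Cidea and Elovl3 was 15.9, 8.46 and 9.24 CPM in WT and 16.4, 10.9 and 16.1 CPM in LSD1-mKO, and their part in the Prdm16 level was not tested.

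From mouse to mouse, the members varied less than the median gene did. The highest mouse was 1.28 times the lowest for the median member and 1.40 times for the median gene tested, and the ratio was under 1.5 for 49 of 60 members (81.7%, against 59.9% of all genes tested). Levels were not matched in this comparison. The trait was not particular to the members: the ratio ran from 1.12 to 1.48 among COMPASS partners of the H3K4 methyltransferases and from 1.11 to 1.39 among lysine acetyltransferases. Other related genes ranged more widely, such as Phf19 with 2.00 and Nmrk2 with 2.76. Prdm1 was the most variable tested member, at 0.603, 2.52 and 1.87 CPM in WT and 2.89, 1.09 and 0.838 CPM in LSD1-mKO, a ratio of 4.79. It rested on only 5 to 39 counts per mouse. Setd4 followed with 3.72, Prdm16 with 2.52 and Suv39h2 with 2.10. Prdm1, which encodes BLIMP1 and is known from lymphocytes and macrophages, was lowest in WT mouse 1 and LSD1-mKO mice 2 and 3. The same 3 mice had the lowest summed level of 7 immune markers, at 83.3, 275 and 215 CPM in WT and 171, 87.4 and 124 CPM in LSD1-mKO. They also had the lowest sum of 7 fibroblast markers, at 1361, 3527 and 4478 CPM in WT and 2867, 1408 and 1546 CPM in LSD1-mKO. The pattern was not particular to these cells. The endothelial sum was lowest in the same mice, at 482, 695 and 602 CPM in WT and 610, 498 and 500 CPM in LSD1-mKO. So were the adipocyte and satellite cell sums, whereas the Schwann and red blood cell sums were not. All 6 tested immune and all 7 fibroblast markers had negative log2 fold changes, and none had an adjusted p under 0.05. The part of these cells in the levels of Prdm1, Prdm16 and Kdm6b was not tested.

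**Figure D5:**
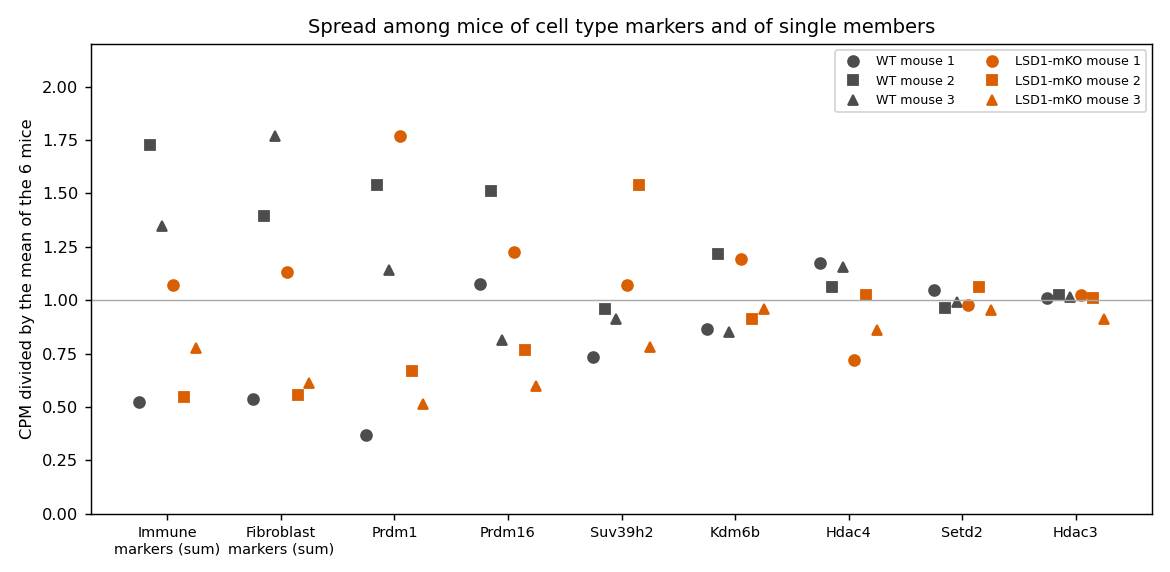
CPM divided by the mean of the 6 mice (vertical axis) for the summed immune and fibroblast markers and for 7 members, with 1 point per mouse. Marker sums and Prdm1 are low in WT mouse 1 and in LSD1-mKO mice 2 and 3, whereas Setd2 and Hdac3 stay close to 1 in all 6.

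Genes that work with the members were counted from 7 lists: other lysine methyltransferases, other JmjC proteins, lysine acetyltransferases, COMPASS and PRC2 partners, the HDAC3 corepressor with MEF2, and NAD salvage. Of 76 genes listed, 72 were in the table and 70 were tested, with 37 higher and 33 lower, a median log2 fold change of 0.010 and no adjusted p under 0.05. An unadjusted p under 0.05 was found for 2 of the 70 (2.86%, against 6.40% of all genes), which are named here after their values were seen. Setdb2, a relative of the H3K9 methyltransferases, was lower at 8.32, 6.03 and 6.31 CPM against 4.66, 4.27 and 5.68 CPM. Nmrk1, a kinase that makes an NAD precursor from nicotinamide riboside, was higher at 3.38, 2.43 and 3.29 CPM against 4.37, 5.21 and 3.91 CPM. Among 11 COMPASS partners, the scaffold proteins of H3K4 methyltransferases, 9 were lower and 2 higher, all with log2 fold changes between -0.10 and 0.04. The 8 PRC2 partners had 5 higher and 3 lower.

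Clock and immediate early genes were also counted, since HDAC3 and SIRT1 act with the clock machinery and class IIa HDACs respond to activity. Arntl, which encodes the clock activator BMAL1, was at 2.77, 4.41 and 3.38 CPM in WT and 9.17, 7.17 and 8.38 CPM in LSD1-mKO. The groups lay apart, with a log2 fold change of 1.21 ± 0.21 (SE, unadjusted p = 4.11e-04, adjusted p = 0.269, edgeR). Fos was at 28.8, 6.03 and 24.6 CPM in WT and 6.07, 2.68 and 6.61 CPM in LSD1-mKO, with WT mouse 2 among the LSD1-mKO values (log2 fold change -1.95, unadjusted p = 0.00695, adjusted p = 0.578, edgeR). Of 11 clock genes tested, 8 were lower and 3 higher, and 3 had an unadjusted p under 0.05 in edgeR (27.3%, against 6.40% of all genes in either direction). Of these 3, Arntl was higher and Per1 and Per3 were lower. All 10 immediate early genes tested were lower, 3 with such a p (30.0%, against 2.88% of all genes in the lower direction and 6.40% in either). The part of clock phase or recent activity in the member values was not tested.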

How the data were processed

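The authors purified poly(A) RNA from whole Sol muscle, sequenced it as 75-base single-end reads on a kit that does not mark strand and aligned it with STAR to mm10. What the authors deposited is a table of unnormalized estimated counts by gene symbol, 1 column per mouse; the counting tool and annotation are not given in the sources used here. Between 8.33% and 9.94% of a library's values were not whole. A deposited table of the authors' own comparison (log2 fold changes and p-values) was not used.

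Counts were rounded and tested with edgeR 4.0.16 in R 4.3.3 (TMM, filterByExpr by genotype, quasi-likelihood test, Benjamini-Hochberg over all 12828 genes tested, threshold 0.05). DESeq2 1.42.0, limma 3.58.1 (voom), other scalings and filters, the replicate number as a block and each mouse left out were alternatives. The fits were tested on simulated data whose changes were larger than those estimated for most members, so that test does not cover changes as small as theirs. Groups without overlap were counted on CPM, and single values were compared by exact two-sided permutation over 10 splits, whose p cannot be under 0.1. P-values of edgeR set the genotype difference against the spread between mice, which is estimated in part from all genes tested. TPM were computed with the longest protein-coding transcript of GENCODE vM21 (GRCm38), which also gave positions and exon overlaps. Motifs were searched in RefSeq promoter windows. Members described mouse by mouse were those with an unadjusted p under 0.05, those of at least 1 CPM without overlap, the 2 of highest TPM in each role group, and 20 fixed muscle-relevant genes. Prdm1 and Suv39h2 were added for their spread after values were seen. The members, the role groups and the gene lists were chosen with earlier results of these data known. Values of 1 member are not reported here. Floors cover counting error only.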

Additional observations from a re-analysis of the deposited data

How the results depend on the processing

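No member reached an adjusted p under 0.05 in edgeR, in any of the 8 alternatives with all mice or with any 1 mouse left out, and the smallest adjusted p of a described member was 0.303 (Sirt2, without WT mouse 1). The number of lower members with an unadjusted p under 0.05 was 1 in DESeq2, 1 without a filter and 2 with the replicate block, against 5, and ran from 0 to 3 with 1 mouse left out; that of higher members ran from 0 to 1. Lower members without overlap ran from 8 to 15 with 1 mouse left out, higher ones from 2 to 10, and upper-quartile scaling gave 1 higher member against 2. The median log2 fold change of the members stayed between -0.057 and -0.012. By median transcript length, Hdac5 made up 54.9% of class IIa RNA and Kdm5c 32.1% of KDM5 RNA. Replicate numbers did not pair the mice (correlations of deviations -0.352, -0.107 and -0.15), so the block is no paired design.

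Of 36 members followed through the alternatives, 11 changed sign somewhere, none of them with an adjusted p under 0.05. Without a filter Hdac11 had a log2 fold change of 0.003 and Setd2 of 0.014; Setd2 was at 0.007 in DESeq2 and 0.006 with its size factors. With 1 mouse left out, log2 fold changes ran from -0.022 to 0.143 for Ezh1, -0.144 to 0.090 for Hdac11, -0.124 to 0.115 for Hdac5, -0.031 to 0.341 for Hdac9, -0.081 to 0.034 for Kdm3b, -0.010 to 0.138 for Kdm5d, -0.076 to 0.014 for Kdm6a, -0.065 to 0.253 for Kdm6b, -0.110 to 0.038 for Kmt2e, -0.042 to 0.033 for Setd2 and -0.135 to 0.009 for Setd5. The cause was not tested. Kdm1a kept a log2 fold change of -1.230 with the block and -1.303 to -1.168 with 1 mouse left out, but its adjusted p was 0.299 with the block, 0.111 to 0.209 without an LSD1-mKO mouse and 0.116 without WT mouse 2.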
